A study of Mus musculus with 26 samples.

Results

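The genes described here encode NF-kB, the controls that hold it in check and Tnfaip3. They were followed in cells that carry CD4 and CD8 but no surface T-cell receptor, called double positive (DP) cells, sorted from 3 tissues of female C57BL/6J mice aged 8 weeks. The 10 genes are the 5 subunit genes Nfkb1, Nfkb2, Rel, Rela and Relb, the inhibitor or cofactor genes Nfkbia, Nfkbib, Nfkbid and Nfkbiz, and Tnfaip3. They were looked up by symbol. All 10 were found among the 13765 genes of the deposited table, and all 10 passed the filter that left 9106 genes for testing.

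The tissues were aortic arch, mediastinal adipose tissue and thymus, each in 4 pools of 5 mice. There were 9 arch, 8 adipose and 9 thymus libraries, already joined to 1 column per pool. No mouse carried a named transgene, deletion or treatment, so tissue was the only factor. Arch and adipose tissue were digested before the sort and a digestion is not named for thymus, so digestion and tissue cannot be told apart. Each library was made from 200 sorted cells. In such bulk samples, fewer cells that express a gene and less RNA per cell cannot be told apart.

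NF-kB is a family of transcription factors built as pairs of 5 related subunits. In resting cells most pairs are kept in the cytoplasm by IkB proteins, of which IkB alpha, the product of Nfkbia, is the best known. Signals from antigen receptors and from receptors of the TNF family activate the IkB kinase, IkB is degraded, and the freed pair enters the nucleus. Nfkbia and Tnfaip3 are themselves NF-kB target genes whose products switch the pathway off. In the thymus NF-kB takes part in survival and selection of developing T cells.

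Recovered reads per column ranged from 11577253 to 34599519. Values below are normalised read counts, that is, reads divided by a size factor of the column. DP cell genes were present in all pools. Summed over 14 DP markers, among them Cd4, Cd8a, Rag1 and Dntt, the level was 10649 to 11210 CPM (reads scaled to a common total) in arch, 7810.2 to 16676 CPM in adipose tissue and 22576 to 26495 CPM in thymus. At the limma threshold used below, 7 of the 14 were lower in arch than in thymus and 8 in adipose tissue than in thymus, and 0 were higher in either. Of all 9106 genes tested, 235 were lower in arch and 61 in adipose tissue than in thymus. Of the 12 pools, 3 held raised markers of cells outside the sort gate. Arch pool 2 had 1929.99 CPM of smooth muscle markers and 1043 CPM of macrophage markers, arch pool 4 had 6599.7 CPM of fibroblast markers, and adipose pool 1 had 1561 CPM of dendritic cell, 286 CPM of macrophage and 275 CPM of B cell markers. Arch pool 2 also had 344 CPM of dendritic cell markers.

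Tnfaip3, which encodes the ubiquitin-editing enzyme A20 that dampens NF-kB signalling, stood higher in DP cells outside the thymus. It had 7538, 6777, 6944 and 4585 normalised read counts in arch pools 1 to 4, 7200.4, 7016, 6355 and 6278 in adipose pools, and 2059.9, 1499.8, 2511 and 833 in thymus pools. Every arch pool and every adipose pool lay above every thymus pool, while arch and adipose pools overlapped. Arch pools averaged 6461 ± 1293, adipose pools 6712 ± 464 and thymus pools 1726 ± 725 (SD, n = 4 each), a ratio of means of 3.74 for arch and 3.89 for adipose tissue over thymus. On the log2(value + 20) scale Tnfaip3 rose by 1.98 ± 0.32 (SE) in arch over thymus (limma, adjusted p = 0.000575). It rose by 2.06 ± 0.32 in adipose tissue over thymus (limma, adjusted p = 0.000617). Arch and adipose tissue differed by -0.08 ± 0.32, which did not pass (limma, adjusted p = 0.954).

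Both differences from thymus passed in 22 of 22 alternative analyses, with log2 changes of 1.67 to 2.38 in arch and 1.75 to 2.27 in adipose tissue. Adjusted p ran from 7.21e-09 to 0.0159 in arch and from 3.6e-09 to 0.0209 in adipose tissue over the limma, edgeR and DESeq2 fits. Without arch pools 2 and 4 and adipose pool 1 the changes were 2.17 ± 0.38 and 2.02 ± 0.34 (limma, adjusted p = 0.00513 and 0.00381). The libraries of pool 1 carry another letter in their titles than those of the remaining pools of a tissue. Within pools 2 to 4 the changes were 2.02 ± 0.39 and 2.14 ± 0.39 (limma, adjusted p = 0.00796 and 0.00952). Pool 1 alone leaves 1 column per tissue, so it has no test of its own.

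Tnfaip3 lies on the minus strand of chromosome 10 (GRCm38 chr10:19000910-19015657) and Nfkbia on the minus strand of chromosome 12 (chr12:55489410-55492647), both protein coding. Their promoters are printed because both genes are known to be switched on by NF-kB itself yet differed in these cells. The sequences are RefSeq windows of 300 bases on build GRCm38.p6, from 250 bases before to 50 after a transcription start, read 5′ to 3′ on the gene's strand. Capitals mark matches to the kB consensus, the degenerate motif that NF-kB pairs bind, searched on both strands. The Tnfaip3 window is chr10:19015361-19015660 and the Nfkbia window is chr12:55492598-55492897, both on the minus strand.
Tnfaip3: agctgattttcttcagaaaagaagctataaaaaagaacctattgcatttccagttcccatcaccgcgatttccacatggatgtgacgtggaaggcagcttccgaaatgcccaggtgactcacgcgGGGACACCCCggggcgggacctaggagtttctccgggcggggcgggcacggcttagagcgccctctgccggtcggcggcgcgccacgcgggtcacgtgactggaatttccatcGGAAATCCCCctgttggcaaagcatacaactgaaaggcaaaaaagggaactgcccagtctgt
Nfkbia: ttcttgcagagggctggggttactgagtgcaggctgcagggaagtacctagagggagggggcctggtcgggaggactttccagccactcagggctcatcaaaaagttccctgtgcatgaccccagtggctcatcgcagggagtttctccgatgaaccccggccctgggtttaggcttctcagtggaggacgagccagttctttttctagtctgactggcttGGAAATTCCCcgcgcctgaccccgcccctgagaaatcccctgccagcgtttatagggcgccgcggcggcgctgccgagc

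The Tnfaip3 window held matches at 125 to 116 bases before the start, where the same stretch matched on both strands, and at 12 to 3 bases before it on the opposite strand. The Nfkbia window held 1 match, at 29 to 20 bases before the start on the opposite strand. A second Tnfaip3 start (chr10:19011914-19012213) had no match. Of the 10 genes 7 had a RefSeq window, and 5 of these 7 held a match (Nfkb2, Rel, Nfkbia, Nfkbid and Tnfaip3), whereas 9.55% of all 27025 genes with a window did. By window, 7 of their 12 held a match, against 8.46% of all 32851. The Nfkb2 windows chr19:46305445-46305744 and chr19:46305680-46305979 overlap, and the same GGGACTTTCC site is counted in both. The 10 genes were chosen as NF-kB pathway genes, so no excess is read from these shares. These are matches of letters and were not measured as binding.

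Nfkbia was the most abundant of the 10 genes and did not differ between tissues past the threshold. It had 7281, 6859, 9729 and 10641 normalised read counts in arch pools, 10973, 7595, 7612 and 11271 in adipose pools, and 11727, 10526, 10511 and 13223 in thymus pools. Arch and adipose pools each overlapped the thymus pools, with the means lower outside the thymus. The mean was 8628 ± 1845 for arch, 9363 ± 2035 for adipose tissue and 11497 ± 1284 for thymus (SD, n = 4 each). The log2 differences were -0.43 ± 0.22 in arch over thymus and -0.31 ± 0.22 in adipose tissue over thymus, and neither passed (limma, adjusted p = 0.249 and 0.627).

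The ratio of Tnfaip3 to Nfkbia within a pool does not depend on the column's scaling. It was 1.04, 0.988, 0.714 and 0.431 in arch pools, 0.656, 0.924, 0.835 and 0.557 in adipose pools, and 0.176, 0.142, 0.239 and 0.063 in thymus pools. The ratio was higher in every arch and every adipose pool than in any thymus pool. It averaged 0.792 ± 0.279 over arch pools, 0.743 ± 0.167 over adipose pools and 0.155 ± 0.0732 over thymus pools (SD, n = 4 each). Arch and adipose pools overlapped. The ratio was formed after the values of both genes were seen and is given as a description. Permutation tests of it were run, but nothing is read from them because the ratio was chosen from these same values.

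**Figure D1:**
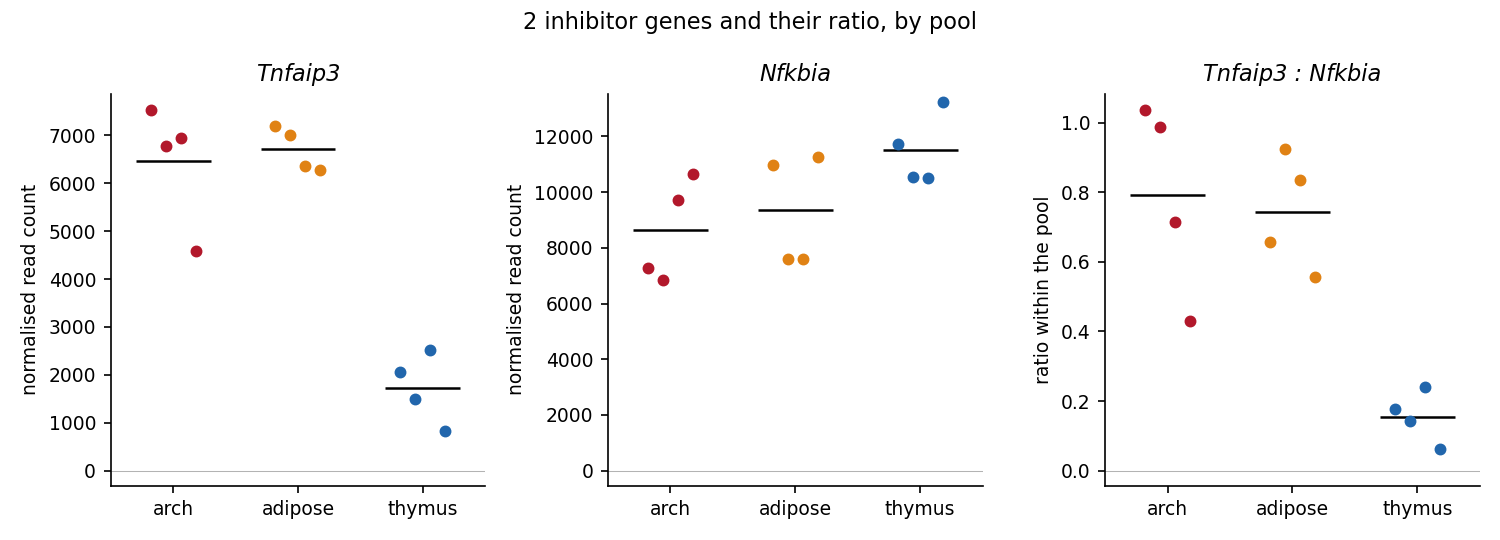
Normalised read counts of Tnfaip3 (left) and Nfkbia (middle) and their ratio (right) in arch, adipose and thymus pools; each point is 1 pool of 5 mice and the line is the mean of 4. For Tnfaip3 and for the ratio every arch and adipose point lies above every thymus point, while for Nfkbia the tissues overlap.

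Among the subunits, Rela stood highest per length of transcript. Rela encodes p65, a subunit with an activation domain of its own. It had 2393, 1271, 1853 and 2696 normalised read counts in arch pools, 2288, 2439.8, 1579 and 4236 in adipose pools, and 2799.7, 2247, 2463 and 3494 in thymus pools. The 3 tissues overlapped. Its log2 difference was -0.45 ± 0.37 in arch over thymus and -0.13 ± 0.37 in adipose tissue over thymus (limma, adjusted p = 0.496 and 0.939).

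Rel encodes c-Rel, the subunit best known from lymphocytes. It had 118, 808, 864 and 549 normalised read counts in arch pools, 617, 0, 287 and 296 in adipose pools, and 229, 2.24, 0 and 0 in thymus pools. Thymus pool 1 lay above arch pool 1, and in the 3 further thymus pools Rel had at most 3 reads. The means were 585 ± 340.2 in arch, 300.03 ± 252 in adipose pools and 57.9 ± 114 in thymus pools (SD, n = 4 each). The log2 difference of 3.67 ± 1.24 in arch over thymus did not pass (limma, adjusted p = 0.0846). It passed without thymus pool 1 (4.56, limma, adjusted p = 0.0496) and without pool 1 of every tissue (5.17, limma, adjusted p = 0.0426), 2 of 22 alternatives, over which adjusted p ran from 0.0426 to 0.537. In adipose tissue over thymus it was 2.28 ± 1.24 (limma, adjusted p = 0.479).

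Relb and Nfkb2 encode the usual partners of the non-canonical branch, RelB and p100/p52. Relb had 774, 226, 556 and 52.9 normalised read counts in arch pools, 459, 643, 279.6 and 407 in adipose pools, and 378, 0, 1106 and 0 in thymus pools. Relb was thus without a read in 2 of 4 thymus pools and at 1106 in another, so thymus spanned the range of both other tissues. Nfkb2 had 612, 53.3, 719 and 201 in arch pools, 1344, 253, 131 and 1346 in adipose pools, and 273, 71.1, 108 and 72.6 in thymus pools. Neither gene passed. The log2 differences of Relb were 1.38 ± 1.27 in arch and 1.96 ± 1.27 in adipose tissue over thymus, and those of Nfkb2 were 1.14 ± 1.05 and 1.98 ± 1.05 (limma, adjusted p from 0.462 to 0.596 for the 4 values). Without arch pools 2 and 4 and adipose pool 1 they were 2.55 ± 1.52 and 1.93 ± 1.34 for Relb (limma, adjusted p = 0.419 and 0.54), and 2.36 ± 1.11 and 1.52 ± 0.98 for Nfkb2 (limma, adjusted p = 0.293 and 0.503). Of the exon bases of Nfkb2, 6.52% are shared with Psd and 11.6% with a noncoding gene, both on the opposite strand, and whether counting used strand is not given in the sources used here.

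Nfkb1, the gene of p105/p50, scattered widely. It had 734, 342, 604 and 189.7 normalised read counts in arch pools, 1377, 0, 0 and 206 in adipose pools, and 1074, 8.23, 1797 and 319 in thymus pools. High and near-zero pools occurred within adipose tissue and within thymus, and all tissues overlapped. Its log2 differences were 0.23 ± 1.42 in arch and -1.81 ± 1.42 in adipose tissue over thymus (limma, adjusted p = 0.945 and 0.687). Without arch pools 2 and 4 and adipose pool 1 they were 0.89 ± 1.59 and -3.05 ± 1.41 (limma, adjusted p = 0.835 and 0.322).

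**Figure D2:**
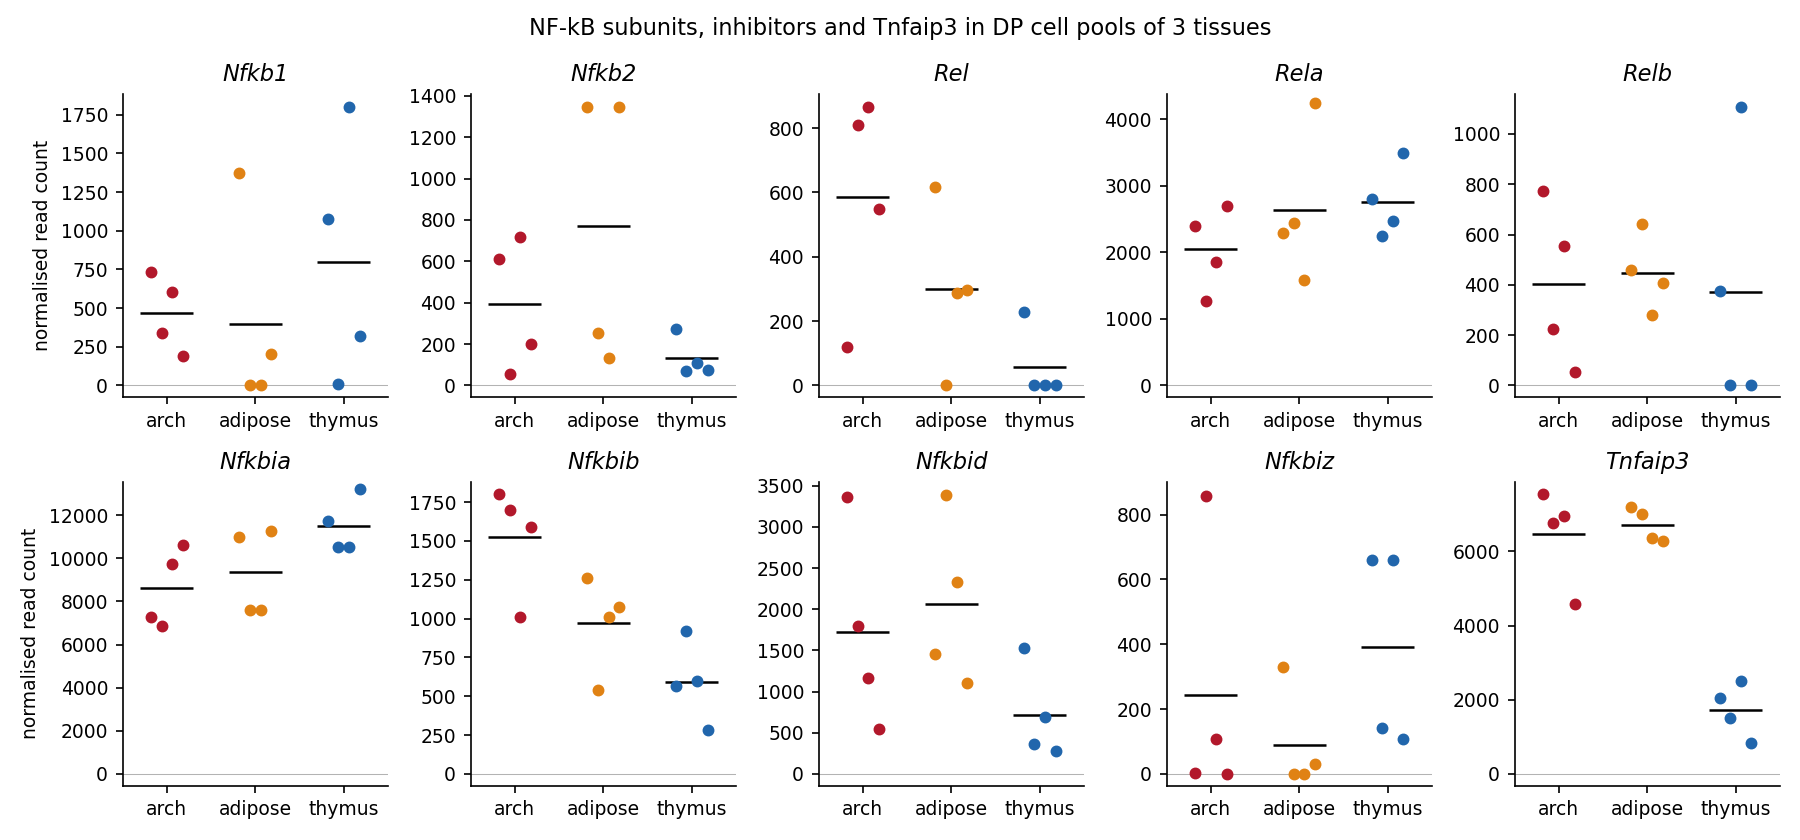
Normalised read counts of the 10 genes in arch, adipose and thymus pools, each point 1 pool of 5 mice and each line the mean of 4, with a separate linear axis per gene. Tnfaip3 separates arch and adipose pools from thymus pools, Nfkbib separates arch pools from thymus pools, and the other 8 genes overlap between tissues.

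Of the remaining IkB genes, Nfkbib was higher in arch pools without passing the test. It encodes IkB beta, a cytoplasmic inhibitor. It had 1804, 1701, 1011 and 1587 normalised read counts in arch pools, 1264, 542, 1012 and 1074 in adipose pools, and 565, 920.0, 597 and 284 in thymus pools. Arch pools lay above thymus pools with no overlap, and adipose pools overlapped both. The log2 difference was 1.41 ± 0.53 in arch over thymus (limma, unadjusted p = 0.0162, adjusted p = 0.12). DESeq2 on recovered reads put it past the threshold (adjusted p = 0.038), while over the 22 alternatives adjusted p ran up to 0.347. In adipose tissue over thymus it was 0.75 ± 0.53 (limma, adjusted p = 0.644). Of the exon bases of Nfkbib, 14.5% are shared with Ccer2 and 1.94% with Sirt2, both on the opposite strand.

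Nfkbid and Nfkbiz encode nuclear IkB proteins, IkBNS and IkB zeta, which act on NF-kB bound to DNA. Nfkbid had 3359.9, 1801, 1161 and 552 normalised read counts in arch pools, 1452, 3389.6, 2332 and 1099.7 in adipose pools, and 1528, 358, 686 and 276 in thymus pools. Thymus pool 1 reached into the range of both other tissues, and the 3 further thymus pools lay below every adipose pool. Its log2 difference was 1.27 ± 0.63 in arch over thymus (limma, adjusted p = 0.238). In adipose tissue over thymus it was 1.69 ± 0.63 (limma, unadjusted p = 0.0152, adjusted p = 0.218).

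Nfkbiz ran the other way in its fitted values. It had 1.63, 858, 109 and 0 normalised read counts in arch pools, 330.1, 0, 0 and 32.2 in adipose pools, and 659, 142, 661 and 107 in thymus pools. Thymus pools all had at least 107 counts, whereas 3 of the 8 extrathymic pools had no read, and single extrathymic pools overlapped thymus. The log2 differences were -1.90 ± 1.32 in arch and -2.59 ± 1.32 in adipose tissue over thymus (limma, adjusted p = 0.416 and 0.443). Arch pool 2, the highest Nfkbiz pool, is also the one with raised smooth muscle and macrophage markers. Without it the arch difference was -3.03 ± 1.26, which did not pass either (limma, adjusted p = 0.18). Without arch pools 2 and 4 and adipose pool 1 the differences were -2.57 ± 1.27 and -3.50 ± 1.12 (limma, adjusted p = 0.319 and 0.124).

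Counted together, 1 of the 10 genes rose and 0 fell in arch over thymus, where 6.57% of all 9106 genes tested passed. In adipose tissue over thymus 1 of 10 rose and 0 fell, beside 2.84% of all genes. In arch over adipose tissue 0 of 10 passed with limma, and 0 with edgeR and with DESeq2, beside 0.176% of all genes with limma. At an unadjusted p under 0.05 the numbers were 3, 2 and 0 of 10. The share of all genes at that level was not computed, so no excess is read from these numbers. Pool values did not overlap for 2 of 10 genes in arch over thymus, against 13.2% of all genes. They did not overlap for 1 of 10 in adipose tissue over thymus, against 10.5%, and for 0 of 10 in arch over adipose tissue, against 5.35%. With 10 genes these shares are near the background, and no result about the 10 genes as a group is read from them.

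The median log2 difference of the 10 genes was 1.21 in arch over thymus, 1.22 in adipose tissue over thymus and -0.10 in arch over adipose tissue. Over all genes tested it was -0.20, -0.01 and -0.17. Centring each column on its median gene moved the median of all genes in arch over thymus to -0.10, a shift over 0.1, and Tnfaip3 to 2.09 and 2.10. In the comparisons with thymus 7 of 10 and 6 of 10 fitted values were positive, and both comparisons share the thymus pools. On this scale pools without a read weigh heavily. Relb had ratios of means over thymus of only 1.09 in arch and 1.21 in adipose tissue, and edgeR gave log2 changes of 0.18 and 0.33. Nfkb1 counted as positive in arch although its mean there was 467 against 800 in thymus. No result about the 10 genes as a group is read from these medians.

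**Figure D3:**
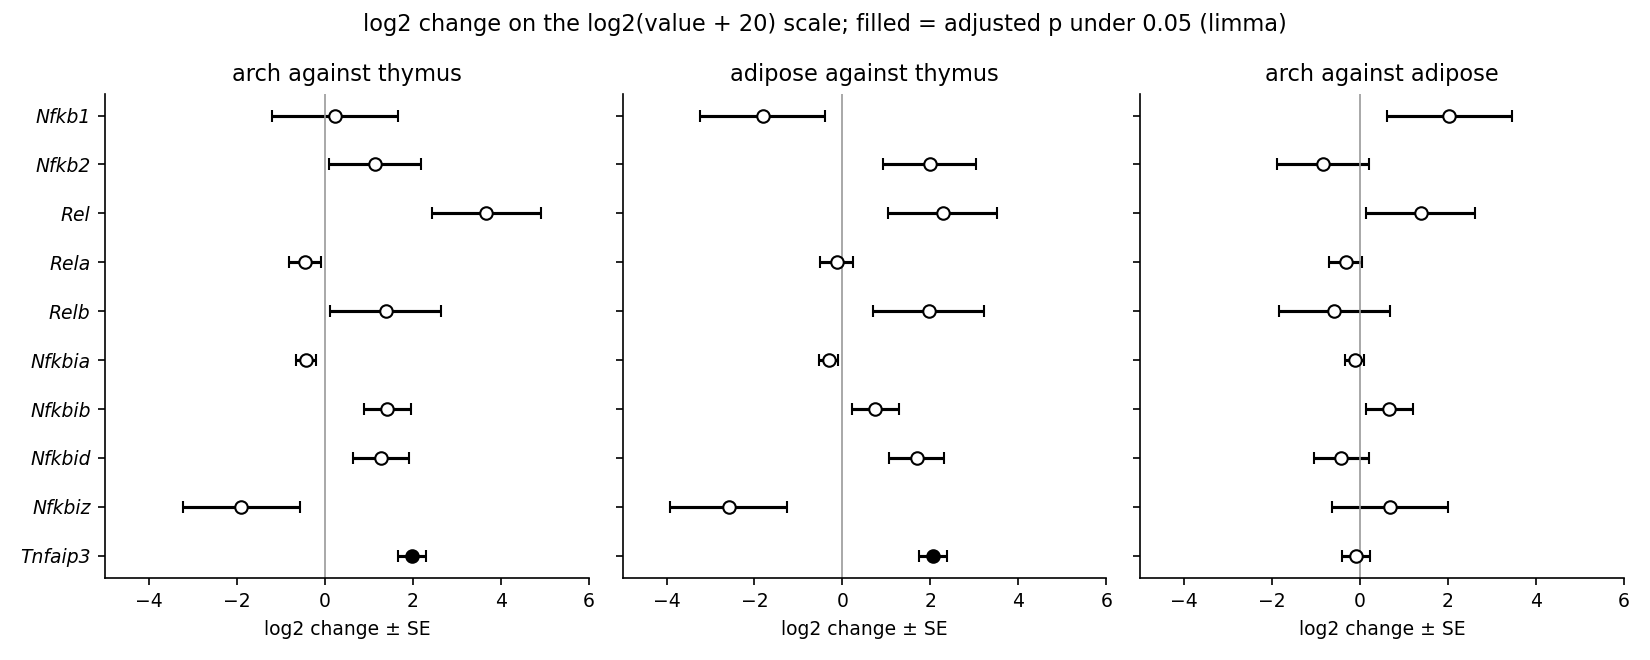
Log2 difference with its SE for the 10 genes in arch against thymus, adipose tissue against thymus and arch against adipose tissue; filled points passed an adjusted p of 0.05 (limma). Tnfaip3 is the filled point in both comparisons with thymus, at 1.98 and 2.06, and no point is filled between arch and adipose tissue.

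Levels between genes were compared per kilobase of merged exon length. Nfkbia led in every tissue, at 5359 ± 1146 normalised read counts per kilobase in arch, 5816 ± 1264 in adipose pools and 7141 ± 798 in thymus (SD, n = 4 each). Outside the thymus Tnfaip3 came next, at 894 ± 179 in arch and 929 ± 64.3 in adipose tissue. There its mean did not stand apart from that of Nfkbid (732 ± 515 and 882 ± 436), Nfkbib (703 ± 163 and 449 ± 142) or Rela (668 ± 204 and 858 ± 368) by more than the sum of the SDs, except from Nfkbib in adipose tissue. In thymus the order below Nfkbia was Rela at 895 ± 177, Nfkbid at 304 ± 244, Nfkbib at 273 ± 120.0 and Tnfaip3 at 239 ± 100.3, the last 3 within the sum of their SDs of each other. Relb, Nfkb1, Nfkb2, Rel and Nfkbiz averaged at most 168 per kilobase in each tissue. The length counts every annotated exon, so a gene used mostly as a short isoform reads too low.

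The 10 genes also differed in how far pools of 1 tissue scattered. Tnfaip3 had a log2 SD of 0.0994 over the 4 adipose pools, and 0.7% of all genes tested had a smaller one. Nfkbia had 0.157 in thymus, with 3.8% of genes below it. At the other end Nfkb1 in adipose tissue had 2.98 and Relb in thymus 2.99, larger than 99.7% and 99.6% of genes. For the median gene it was 1.04 over arch pools, 0.732 over adipose pools and 0.742 over thymus pools. Nfkbia, Rela, Tnfaip3 and Nfkbib varied less than the median gene in all 3 tissues. A count of 0 allows up to 3 reads in a column by counting error alone, and reads without molecular identifiers are not separate molecules.

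By Pearson correlation over the 12 pools the genes most like Tnfaip3 were Pde4d (0.982), Dusp1 (0.959) and Prdx6 (0.948), a description in which the shared tissue steps set much of the value. Pde4d encodes a phosphodiesterase that degrades cyclic AMP. It had 9175, 9973, 5825 and 3853 normalised read counts in arch pools, 10496, 6117, 7612 and 8402 in adipose pools, and 1008, 675, 775 and 168 in thymus pools. Arch pool 4 was the lowest arch pool and thymus pool 4 the lowest thymus pool for Pde4d as for Tnfaip3. Dusp1, an immediate early gene of a MAP kinase phosphatase, averaged 9038 ± 2021 over arch pools, 8067 ± 1561 over adipose pools and 848 ± 411 over thymus pools (SD, n = 4 each). Prdx6, a peroxiredoxin gene, averaged 25262 ± 2397, 34533 ± 5216 and 7421 ± 1689 in arch, adipose tissue and thymus (SD, n = 4 each).

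Groups of genes that move with dissociation and handling in many tissues were read beside Tnfaip3. The median of 25 immediate early genes, as log2 above the thymus mean, was 2.27, 2.81, 1.65 and 2.82 in arch pools, 3.03, 0.40, 1.36 and 1.12 in adipose pools, and from -0.28 to 0.22 in thymus pools. The median of 18 heat shock genes was 2.33 to 2.52 in arch pools, 0.96 to 1.53 in adipose pools and -0.20 to 0.50 in thymus pools. Both lists were thus higher outside the thymus, as Tnfaip3 was. Tnfaip3 was 7538, 6777, 6944 and 4585 in arch pools 1 to 4, and 7200.4, 7016, 6355 and 6278 in adipose pools. Dusp1, with a correlation of 0.959 to Tnfaip3, is in the immediate early list. The part of these lists in the Tnfaip3 result was not tested.

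Markers of cells outside the sort gate were read beside Tnfaip3 in the same pools. In adipose pools 1 to 4 macrophage markers summed to 286, 21.4, 14.6 and 0.0372 CPM. B cell markers summed to 275, 182, 27.4 and 61.2 CPM in them. Dendritic cell markers summed to 1561, 6.30, 27.8 and 20.1 CPM in them. Tnfaip3 was 7200.4, 7016, 6355 and 6278 in the same 4 pools. In arch pools 1 to 4 macrophage markers summed to 30.3, 1043, 3.16 and 8.61 CPM. B cell markers summed to 53.3, 91.1, 56.9 and 2.87 CPM in these arch pools, where Tnfaip3 was 7538, 6777, 6944 and 4585. Macrophage markers summed to 3.16 to 1043 CPM in arch, 0.0372 to 286 CPM in adipose tissue and 0.131 to 23.96 CPM in thymus. B cell markers summed to 2.87 to 91.1, 27.4 to 275 and 73.8 to 217 CPM in arch, adipose tissue and thymus, fibroblast markers to 125 to 6599.7, 59.2 to 389.9 and 88.9 to 298 CPM, and smooth muscle markers to 0.56 to 1929.99, 0.503 to 15.1 and 0 to 3.31 CPM. Dendritic cell markers summed to 7.28 to 344 CPM in arch, 6.30 to 1561 CPM in adipose tissue and 35.3 to 67.4 CPM in thymus, and 0 of 3 tested passed in either comparison with thymus. Markers of NK and innate lymphoid cells summed to 207 to 317, 152 to 275 and 203 to 371 CPM in arch, adipose tissue and thymus. Without Gata3, the leading gene of that list, they summed to 122 to 261, 110 to 227 and 107 to 128 CPM. Of its genes, 1 of 5 tested was higher in arch and 1 of 5 in adipose tissue than in thymus. Endothelial markers summed to 85.5 to 118, 65.3 to 380.5 and 41.9 to 111 CPM, thymic epithelial markers to 699 to 1232, 525 to 863 and 423 to 725 CPM, adipocyte markers to 0 to 36.8, 0 to 182 and 0.0742 to 17.7 CPM, and neutrophil markers to 11.7 to 54.0, 7.88 to 14.997 and 9.91 to 13.5 CPM. Of thymic epithelial markers 1 of 2 tested was higher in arch than in thymus. The leading gene of a list made up much of some sums. Without Cd79b, B cell markers summed to 0.07 to 0.27, 0 to 199 and 0.297 to 20.1 CPM in arch, adipose tissue and thymus. In that order fibroblast markers without Gsn gave 0.0753 to 4355, 0.0372 to 116 and 0 to 3.83 CPM. Endothelial markers without Pecam1 gave 0 to 50.6, 0 to 278 and 0 to 14.2 CPM. Thymic epithelial markers without Ctsl gave 8.29 to 233, 1.68 to 42.7 and 4.08 to 65.0 CPM. Mature T cell markers summed to 2014 to 2892, 1705 to 2683 and 2782 to 4682 CPM in arch, adipose tissue and thymus. Without Ccr9 they gave 556 to 958, 387 to 547 and 780 to 1227 CPM. Of 6 tested, 1 was higher and 1 lower in arch than in thymus, and 0 higher and 1 lower in adipose tissue. The counts in this paragraph stand beside 6.57% and 2.84% of all genes tested that passed in arch and adipose tissue over thymus. The part of these cells in the Tnfaip3 result was not tested beyond the comparison without arch pools 2 and 4 and adipose pool 1.

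**Figure D4:**
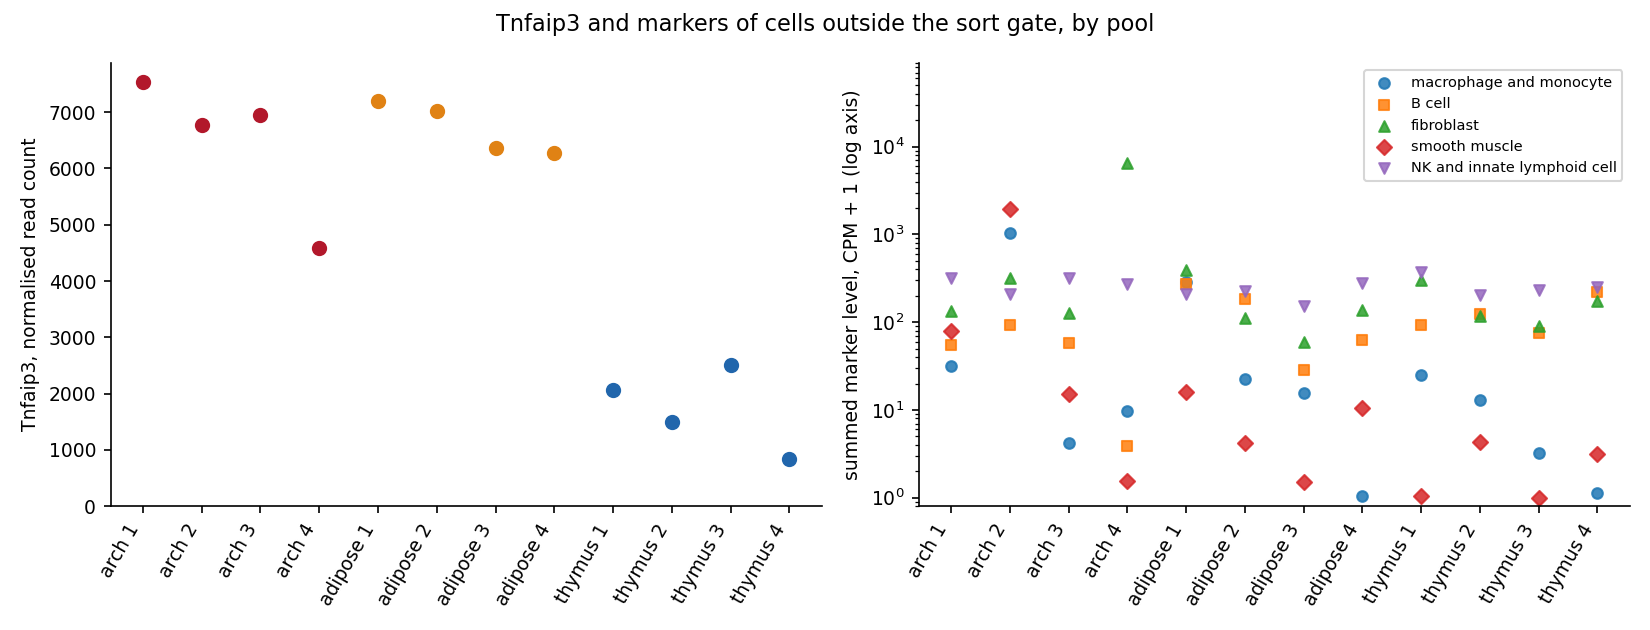
Left, Tnfaip3 as normalised read count in each of the 12 pools; right, the summed level (CPM + 1, log axis) of markers of 5 cell types outside the sort gate in the same pools. Smooth muscle and macrophage markers stand out in arch pool 2 and fibroblast markers in arch pool 4. Among arch and adipose pools Tnfaip3 was lowest in arch pool 4, at 4585, and highest in arch pool 1, at 7538. Dendritic cell markers, at 1561 CPM in adipose pool 1, are not drawn.

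The counts of pathway genes given next stand beside the 6.57% of all genes tested that passed in arch over thymus and the 2.84% that passed in adipose tissue over thymus. For their counts at an unadjusted p under 0.05 no share of all genes was computed, and no excess is read from them. The receptor gene Tnfrsf1b, which encodes TNF receptor 2, had the largest rise of the pathway genes named. It had 1131, 1491, 1933 and 3567 normalised read counts in arch pools, 2635, 951, 1690.3 and 1972 in adipose pools, and 1.13, 10.5, 0 and 188 in thymus pools. Every arch and adipose pool lay above every thymus pool. Its log2 change was 5.53 ± 0.83 in arch and 5.41 ± 0.83 in adipose tissue over thymus (limma, adjusted p = 0.000306 and 0.000594). The call in adipose tissue was lost with edgeR (adjusted p = 0.066), and over the other alternatives of both comparisons it held.

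Of 11 tested receptors and adaptors, Tnfrsf1b rose and 2 fell in arch over thymus, and Tnfrsf1b alone rose in adipose tissue, where 6.57% and 2.84% of all genes tested passed. The costimulatory receptor gene Cd27 averaged 12882 ± 4758 in arch against 29748 ± 5329 in thymus (SD, n = 4 each), a log2 change of -1.26 ± 0.23 (limma, adjusted p = 0.00218), which was lost in 1 of 22 alternatives, limma without the trend (adjusted p = 0.0714). Tradd, the adaptor of TNF receptor 1, had 158, 70.4, 21.8 and 0 in arch pools against 395 to 638 in thymus pools, a change of -3.20 ± 0.94 (limma, adjusted p = 0.0479). The Tradd call was lost in 17 of 22 alternatives, also on leaving out any of 7 single pools. In adipose tissue Tradd was 178 to 620.1, and the comparison with thymus did not pass (limma, adjusted p = 0.905). Cd27 in adipose tissue over thymus was at -0.30 ± 0.23 and did not pass either (limma, adjusted p = 0.687).

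In the antigen receptor arm 1 of 12 genes rose and 2 fell in arch over thymus, and 0 rose and 1 fell in adipose tissue over thymus, beside 6.57% and 2.84% of all genes tested. Bcl10, an adaptor between the antigen receptor and the IkB kinase, had 7017, 7949, 7571 and 5249 normalised read counts in arch pools against 2664, 2955, 3241 and 1367 in thymus pools. The pools did not overlap, and the log2 change was 1.49 ± 0.32 (limma, adjusted p = 0.00683), lost without the trend (limma, adjusted p = 0.0548). Vav1, an exchange factor below the receptor, averaged 1489 ± 992 in arch against 5431 ± 892 in thymus (SD, n = 4 each), a change of -2.04 ± 0.39 (limma, adjusted p = 0.00315). It was lost without arch pools 2 and 4 and thymus pool 3 (-1.44, limma, adjusted p = 0.0662). In adipose tissue over thymus Bcl10 was at 0.79 ± 0.32 and Vav1 at -0.76 ± 0.39, the same directions, and neither passed (limma, adjusted p = 0.261 and 0.453). Lcp2, the gene of the adaptor SLP-76, averaged 6226 ± 2013 in arch and 4980.2 ± 1397 in adipose tissue against 14149 ± 4172 in thymus (SD, n = 4 each). Its changes were -1.19 ± 0.30 and -1.50 ± 0.30 (limma, adjusted p = 0.0227 and 0.00615). The arch call of Lcp2 was lost in 6 of 22 alternatives: without arch pool 2, thymus pool 2 or thymus pool 4 (limma, adjusted p = 0.0672 to 0.0779), without pool 1 of every tissue (0.0545), without a filter (0.0583) and without the trend (0.121). Its adipose call was lost in 2 of 22, without pool 1 of every tissue and without the trend (limma, adjusted p = 0.077 and 0.112).

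Of 16 tested IkB kinases and kinases above them, 0 passed in any comparison with limma, edgeR or DESeq2, and 1, 0 and 2 had an unadjusted p under 0.05 in arch over thymus, adipose tissue over thymus and arch over adipose tissue. The kinase subunit gene Chuk averaged 4512 ± 1373 over arch pools, 3840.0 ± 649.6 over adipose pools and 2990.3 ± 1644 over thymus pools, and Ikbkb averaged 668 ± 290.1, 1551 ± 394 and 1456 ± 1066 (SD, n = 4 each). Ikbkg, the regulatory subunit NEMO, had 29.3, 329, 1054 and 20.2 in arch pools against 434 to 1031 in thymus pools, and did not pass (-2.24 ± 0.95, limma, adjusted p = 0.166).

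Of 13 tested further IkB proteins and NF-kB modifiers 0 passed in any comparison with limma, edgeR or DESeq2, with 4, 2 and 0 at an unadjusted p under 0.05. Nfkbie, the gene of IkB epsilon, averaged 1323 ± 776 for arch, 1055 ± 499 for adipose tissue and 1131 ± 442 for thymus (SD, n = 4 each). Bcl3, a nuclear IkB gene, had reads in 4 of 12 pools and was not tested. Of 12 tested ubiquitin brakes, the enzymes and adaptors that work beside A20, 0 passed with limma, edgeR or DESeq2, with 0, 2 and 1 at an unadjusted p under 0.05. Of 3 tested ligands 0 passed with any of the 3 tools, with 0, 1 and 0 at an unadjusted p under 0.05.

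Of 14 tested ubiquitin ligases that signal to NF-kB, 0 rose and 1 fell in arch over thymus and 0 passed in adipose tissue over thymus, where 2 had an unadjusted p under 0.05 and edgeR and DESeq2 also gave 0. The one that fell was Rbck1, the gene of HOIL-1 in the linear ubiquitin complex. It averaged 734 ± 495 in arch against 4174 ± 2055 in thymus (SD, n = 4 each), a log2 change of -2.74 ± 0.79 (limma, adjusted p = 0.0455). The Rbck1 call was lost in 13 of 22 alternatives, also without any of 5 single pools, and the change was -1.50 without arch pools 2 and 4 and thymus pool 3. In adipose tissue over thymus Rbck1 was at -1.05 ± 0.79 (limma, adjusted p = 0.668).

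Of 28 tested NF-kB target genes 4 rose and 1 fell in arch over thymus, and 2 rose and 0 fell in adipose tissue over thymus, beside 6.57% and 2.84% of all genes tested. The list holds 8 of the 10 genes described above, among which Tnfaip3 rose, so 3 of 20 further target genes rose in arch and 1 in adipose tissue. The median log2 difference of these 20 was 0.16 in arch and 0.008 in adipose tissue over thymus. Gadd45b, a stress sensor gene, had 975, 2359, 1239.7 and 2561 normalised read counts in arch pools against 212, 102, 291 and 0 in thymus pools. It rose by 3.85 ± 0.90 (limma, adjusted p = 0.0127), a call lost in 3 of 22 alternatives. With edgeR the change was 3.57 (adjusted p = 0.116). Without arch pools 2 and 4 and thymus pool 3 it was 3.76 (limma, adjusted p = 0.0867). Without arch pools 2 and 4 and adipose pool 1 it was 3.28 (limma, adjusted p = 0.156). Fth1, the ferritin heavy chain gene, rose by 0.78 ± 0.17 in arch over thymus (limma, adjusted p = 0.00676). Without arch pools 2 and 4 and adipose pool 1 the change of Fth1 was 0.53 (limma, adjusted p = 0.0985). Its call was lost in 3 of 22 alternatives. In adipose tissue over thymus Gadd45b was at 2.05 ± 0.90 and Fth1 at 0.44 ± 0.17, the same direction, and neither passed (limma, adjusted p = 0.337 and 0.224).

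Slfn2, a gene that keeps T cells quiescent, averaged 12068 ± 2447 in arch and 16999 ± 1300.0 in adipose tissue against 7307 ± 1505 in thymus (SD, n = 4 each). It rose by 1.24 ± 0.21 in adipose tissue over thymus (limma, adjusted p = 0.00143), lost without the trend (limma, adjusted p = 0.0887). The change of 0.73 ± 0.21 in arch (limma, adjusted p = 0.0458) passed in 5 of 22 alternatives, with adjusted p from 0.00315 to 0.211. Bcl2l1, the gene of the survival protein Bcl-xL, had 2380.3, 774, 1739 and 1469 in arch pools against 5132, 5704, 5324 and 7192 in thymus pools. It fell by 1.96 ± 0.34 on the log2 scale (limma, adjusted p = 0.00146), in 22 of 22 alternatives. In adipose tissue it averaged 2539 ± 437, and the comparison with thymus gave -1.20 ± 0.34 (limma, adjusted p = 0.0741). In arch over adipose tissue 0 genes of any of the 8 pathway lists passed with limma, where 0 to 5 genes per list had an unadjusted p under 0.05. In that comparison edgeR gave 0 in each list, and DESeq2 gave 1 among receptors and adaptors and 1 among target genes.

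**Figure D5:**
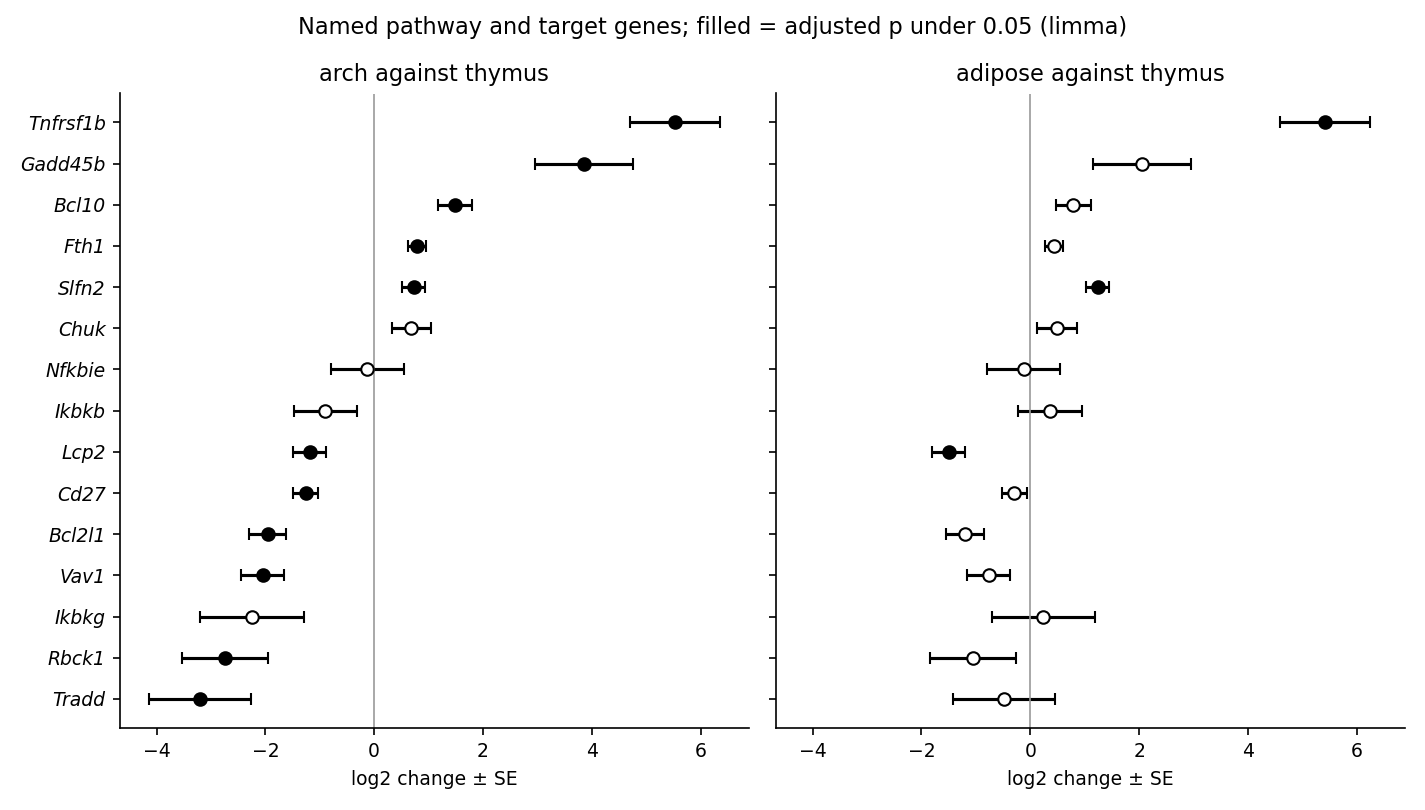
Log2 difference with its SE for the named pathway and target genes in arch against thymus (left) and adipose tissue against thymus (right), ordered by the arch value; filled points passed an adjusted p of 0.05 (limma). Tnfrsf1b is highest in both, at 5.53 and 5.41, and Tradd lowest in arch at -3.20.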

How the data were processed

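The submitters' processing notes name the build GRCm38, STAR 2.6.0c and FastQC 0.11.5. Counter, annotation and strand setting: not given in the sources used here. Per the labels' protocols, viable CD4+CD8b+TCR- cells were sorted 400 at a time, poly(A) RNA was copied to cDNA, which went through 18 PCR cycles, and single ends of 50 bp were read. The deposited unit is a normalised signal per gene and pool, made by the authors from 26 libraries. Division of each column by its smallest value gave whole reads for 100% of 120369 values above 0 (within 0.01).

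Computed here were log2(signal + 20) for the 9106 genes that reached 100 in 4 or more columns, and limma 3.58.1 with an intensity trend in R 4.3.3, with 1 fit over 12 columns, tissue as the term and pools as replicates. The threshold was 0.05 after Benjamini-Hochberg adjustment over all genes tested; "rose" and "fell" are used of genes that passed it. The fold scale understates changes of low genes. edgeR 4.0.16 and DESeq2 1.42.0 on recovered reads, other pseudocounts, filters and scalings, and omitted pools were alternatives. Gene models were from GENCODE M21. The 10 genes and the lists were chosen with earlier results of these data known, and the Tnfaip3 to Nfkbia ratio was added after the data were seen. All 10 genes are named; of each pathway list the genes with the smallest p are named, at most 6 per comparison, with Ikbkb, Chuk, Ikbkg, Nfkbie and Bcl3. Reads carry no molecular identifiers.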

Additional observations from a re-analysis of the deposited data

Results flagged for a closer look

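Of 30 groups of 4 pools (10 genes in 3 tissues), 4 held a pool far from the other 3. For normally distributed values chance does so in about 1 in 20 groups, and read counts near 0 are not distributed in that way. Nfkb1 was 1377 normalised read counts in adipose pool 1, against 0 to 206 in the other adipose pools. Nfkbiz was 330.1 in the same pool, against 0 to 32.2. Rel was 229 in thymus pool 1, against 0 to 2.24, and without that pool the arch difference of Rel passed the test (limma, adjusted p = 0.0496). Nfkbiz was 858 in arch pool 2, against 0 to 109. Adipose pool 1 and arch pool 2 are also pools with raised markers of other cells. Without them and arch pool 4, Nfkb1 in adipose tissue over thymus was -3.05 and Nfkbiz -3.50, and Nfkbiz in arch over thymus was -2.57 (limma, adjusted p = 0.322, 0.124 and 0.319).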

How the results depend on the processing

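The call of Tnfaip3 over thymus held in all 22 alternatives in both tissues. Members that passed in arch over thymus numbered 2 with DESeq2, 2 without pool 1 of every tissue and 1 to 2 without single pools. All genes that passed in arch over thymus numbered 598, against 365 with edgeR, 1007 with DESeq2, 333 without the trend, 308 without the columns of least depth per library (thymus pool 3, arch pools 2 and 4), 336 without pool 1, 345 without arch pools 2 and 4 and adipose pool 1, and 404 to 620 without single pools. In adipose tissue over thymus 259 passed, against 539 with DESeq2, 130 without the trend, 161 without pool 1 and 169 to 250 without single pools. In arch over adipose tissue 16 passed, against 9 with a pseudocount of 5, 2 without a filter, 8 with edgeR, 168 with DESeq2, 3 without the trend, 0 without the columns of least depth, 0 without the marker-rich pools and 2 to 14 without single pools.

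Signs turned for differences that had not passed. Nfkb1 in arch over thymus was -0.73 with edgeR, -0.77 with DESeq2 and -1.01 to 0.99 without single pools, and Rela in adipose tissue over thymus was -0.39 to 0.081 without single pools. In arch over adipose tissue, without the columns of least depth and without the marker-rich pools, Nfkb2 was 0.38 and 0.83, Relb 0.59 and 0.62, and Tnfaip3 0.11 and 0.14. Without the columns of least depth Nfkbid was 0.067, and without pool 1 Nfkbia was 0.041. Without single pools Relb was -1.04 to 0.10, Nfkbid -0.83 to 0.023, Nfkbiz -0.44 to 1.60 and Tnfaip3 -0.16 to 0.079. The causes were not tested.

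The labels do not say that a pool number marks the same mice in each tissue, and the numbers were not taken to pair the samples, since same-numbered pools correlated at -0.032 to 0.076. With the pool number as a replicate block Tnfaip3 changed by 1.98 and 2.06 (limma, adjusted p = 0.000512 and 0.00049), and 608, 243 and 12 genes passed. Rel, Relb, Nfkb1 and Nfkbiz had pools without a read, where depth sets the lowest level that can be seen.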
